A study of Mus musculus with 6 samples.

Results

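The 9 genes described here are microglia identity genes: Sall1, Tmem119, P2ry12, Siglech, Gpr34, Olfml3, Kcnk12, Hspb3 and Kcnd1. They were chosen by symbol, 9 of the 31053 genes counted, because they stand high in microglia of these libraries. Their excess in microglia therefore describes the choice and was not tested. Single cells were sequenced from adult C57BL6 mice that were not perfused, in 4 cortical surface libraries (tissue label Brain) and 2 bone-associated libraries (tissue label Dura/Skull). Each library pooled several mice of either sex, viable cells were sorted, and the labels give no transgene or treatment for any library. For the dissociation, the labels name papain and tissue of the ventricular zone, whereas the study's methods name collagenase and dispase. The spread between libraries is the only replicate error, and how far it reflects single animals is unknown.

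Microglia are the resident macrophages of the brain parenchyma. They arise from yolk sac progenitors, and their identity is held by lineage factors together with TGF-beta signalling. Border macrophages of the meninges share much of this origin but express another gene programme. Sall1 encodes a zinc finger transcription factor required for the microglial state, and Tmem119 a membrane protein that is also known from bone-forming cells. P2ry12 encodes the ADP receptor that steers microglial processes, Gpr34 a lysophosphatidylserine receptor, and Siglech a sialic acid-binding lectin that also marks plasmacytoid dendritic cells. Olfml3 encodes a secreted olfactomedin-like glycoprotein, Kcnk12 and Kcnd1 potassium channel subunits, and Hspb3 a small heat shock protein.

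The 9 genes lie apart from each other in the genome (GRCm38, GENCODE annotation), and all are protein coding. Sall1 spans chr8:89027235-89044162 on the minus strand, Tmem119 chr5:113793729-113800516 (minus) and Siglech chr7:55768178-55778925 (plus). P2ry12, chr3:59216272-59262871, and Olfml3, chr3:103722222-103738001, are both on the minus strand of chromosome 3. Gpr34, chrX:13632089-13640858, and Kcnd1, chrX:7822289-7838280, are both on the plus strand of chromosome X. Kcnk12 spans chr17:87745801-87797994 and Hspb3, which has 1 exon, chr13:113662896-113663676, both on the minus strand.

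Promoter sequences from RefSeq (GRCm38.p6) were found for 6 of the 9 genes, but not for Tmem119, Gpr34 and Kcnd1. The 250 bases before the start of 4 of them are shown, because these genes were high in the same cells and their promoters hold different letters. They were read for PU.1, PU.1 with IRF, IRF, RUNX, MEF2, AP-1 and TATA box motifs on both strands, and capitals mark a match. The windows are P2ry12 at chr3:59262986-59263235 (minus), Siglech at chr7:55767934-55768183 (plus), Olfml3 at chr3:103738002-103738251 (minus) and Hspb3 at chr13:113663677-113663926 (minus).
P2ry12: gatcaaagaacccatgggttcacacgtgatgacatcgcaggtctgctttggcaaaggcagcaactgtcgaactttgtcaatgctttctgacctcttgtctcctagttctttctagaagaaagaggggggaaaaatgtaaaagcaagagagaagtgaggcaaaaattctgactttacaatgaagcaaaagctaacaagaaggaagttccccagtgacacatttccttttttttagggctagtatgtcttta
Siglech: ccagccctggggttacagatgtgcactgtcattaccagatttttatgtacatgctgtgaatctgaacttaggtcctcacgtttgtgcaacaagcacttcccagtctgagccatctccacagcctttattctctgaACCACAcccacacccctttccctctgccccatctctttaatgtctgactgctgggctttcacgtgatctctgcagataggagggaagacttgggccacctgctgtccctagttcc
Olfml3: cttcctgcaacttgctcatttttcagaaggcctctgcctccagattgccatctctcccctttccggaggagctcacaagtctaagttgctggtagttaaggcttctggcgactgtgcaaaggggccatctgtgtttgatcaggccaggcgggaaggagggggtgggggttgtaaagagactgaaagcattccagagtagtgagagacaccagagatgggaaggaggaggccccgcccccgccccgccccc
Hspb3: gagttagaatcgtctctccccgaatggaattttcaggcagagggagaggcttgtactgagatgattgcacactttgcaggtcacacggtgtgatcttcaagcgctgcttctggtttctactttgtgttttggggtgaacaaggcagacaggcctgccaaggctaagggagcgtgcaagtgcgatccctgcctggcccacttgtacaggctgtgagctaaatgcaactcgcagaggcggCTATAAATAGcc

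Siglech held the RUNX letters TGTGGT, read on the other strand, which 14.2% of 27025 promoters hold. Hspb3 held the MEF2 letters (CTA and TAG with 4 bases between), found in 3.23% of promoters, and inside them the TATA box letters TATAAA, found in 3504 promoters. Kcnk12 held the PU.1 letters GAGGAAG, found in 10.4%. P2ry12, Olfml3 and the 3 starts of Sall1 held none of the 7 motifs in these windows. The remaining motifs searched were TGANTCA for AP-1 (6.87% of promoters), GAAA repeated after 2 bases for IRF (3.04%) and GGAA followed after 2 bases by GAAA for PU.1 with IRF (2.38%).

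After filtering, 8680 cells remained, 5272 from the cortical surface and 3408 bone-associated. They were clustered without the 9 genes and named from other markers, with "-like" for a class so named. The libraries held 8408685 to 56169736 UMIs (unique molecular identifiers, each standing for 1 captured mRNA molecule) in 951 to 5602 barcodes. Before filtering, hemoglobin genes made up 84.6% of UMIs in cortical surface library 3, 71.9% in library 4 and at most 0.52% in the others. Pairs of libraries shared 0 to 9 barcodes. Levels are given as CPM, the UMIs of a gene per 1000000 UMIs summed over the cells of a class in a library. They are compared within a gene only.

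Microglia-like cells numbered 731 (52, 148, 145 and 386 in cortical surface libraries 1 to 4) and were not found in the bone-associated libraries. All 8 of their naming markers, Cx3cr1 among them, led each of their 3 clusters. The summed level of these markers was 19866.6 to 22256.7 CPM, against 1092 to 1511 CPM in border macrophage-like cells of the same libraries. The 10 border macrophage markers summed to 21.3 to 51.6 CPM in microglia-like cells.

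P2ry12 stood at 2987, 3337, 3298 and 3294 CPM in the microglia-like cells of cortical surface libraries 1 to 4. Gpr34 stood at 1836, 2447, 2307 and 2343 CPM there. These receptor genes were detected in 98.8% and 97.4% of the cells, and their median counts were 18 and 14 UMIs. Siglech stood at 1492, 1504, 1949 and 1946 CPM, Tmem119 at 1397, 1790.1, 1775 and 1743 CPM, and Olfml3 at 1374, 1844, 1477 and 1602 CPM. Sall1, the transcription factor gene, stood at 341, 267, 429 and 364 CPM and was detected in 79.5% of the cells, with a median of 2 UMIs. Cortical surface T or NK cell-like cells had about the same depth (a median of 6247 UMIs per cell against 6248). Sall1 was detected in 0.456% of them and P2ry12 in 2.05%, but Gpr34 in 47 of the 439 cells. They thus give a low background for Sall1 and P2ry12 and not for Gpr34.

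Kcnk12, Hspb3 and Kcnd1 were sparse even in microglia-like cells. Kcnk12 stood at 33.8, 65.2, 37.9 and 50.1 CPM in libraries 1 to 4 and had a UMI in 25.2% of the cells. Hspb3 stood at 20.2, 63.4, 21.2 and 45.1 CPM (20.0% of the cells), and Kcnd1 at 60.8, 33.5, 26.7 and 25.9 CPM (17.0%). No one library was highest for all 3. Of the 731 cells, 381 had a UMI of none of these 3 genes, 255 of 1, 86 of 2 and 9 of all 3.

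**Figure D1:**
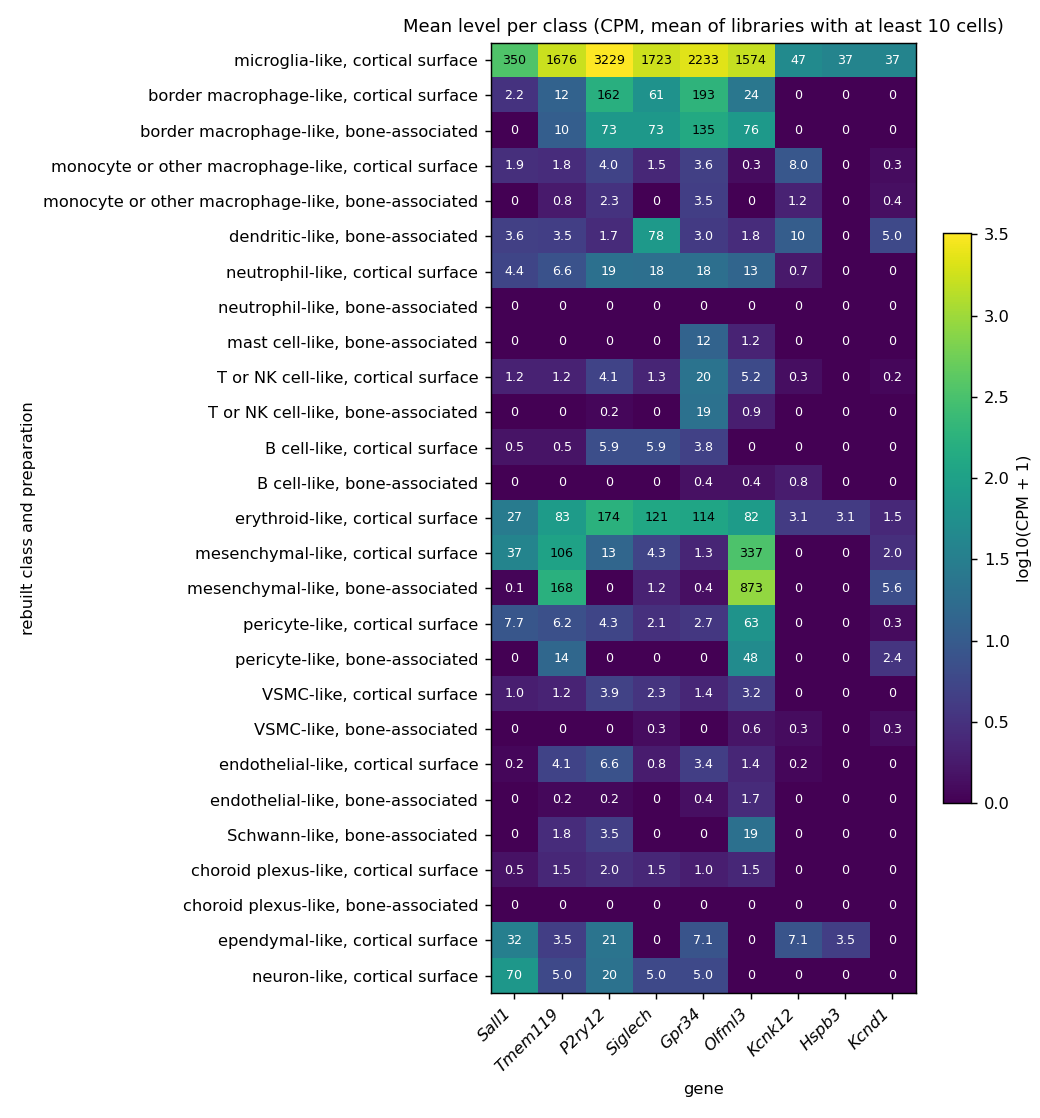
Mean CPM of the 9 genes (columns) in each named class and preparation (rows), averaged over libraries with at least 10 cells of the class; colour is log10(CPM + 1), and levels are to be compared down a column. Every column is highest in microglia-like cells, with Olfml3 and Tmem119 also high in mesenchymal-like cells.

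Each of the 9 genes was highest in microglia-like cells among 27 groups of a named class and a preparation. Of all UMIs in cortical surface cells, microglia-like cells held between 80.1% (Kcnd1) and 93.1% (Hspb3) for each gene. Over both preparations the share for Olfml3 was 56.4%, since 4111 of its UMIs were in bone-associated cells. Hspb3 had no UMI in any bone-associated cell.

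The 3 microglia-like clusters did not hold the genes at one level. One cluster of 156 cells, led by Gpr84, Sgk1 and Lag3, had P2ry12 at 2477, 2537, 2001 and 2471 CPM in libraries 1 to 4, against 3509.8, 4320.3, 3736 and 3912 CPM in the largest cluster of 394 cells. P2ry12 was thus lower in that cluster in 4 of 4 libraries. Sall1 was lower there as well, at 208 to 299.9 CPM against 325 to 499 CPM. Tmem119 (935 to 1591 CPM against 1716 to 2180 CPM), Siglech, Gpr34 and Olfml3 were also lower there in 4 of 4 libraries. On few UMIs, Kcnk12 was lower too, while Hspb3 was higher there in libraries 1 and 2 and Kcnd1 in library 1. The summed level of 15 dissociation-response genes, immediate early and stress genes such as Fos and Hspa1a, was 11056.6 to 32743.1 CPM in that cluster and 4782 to 9916 CPM in the largest. The third cluster, of 181 cells, had P2ry12 at 2074.5, 3756, 2399 and 2332 CPM, below the largest cluster in 4 of 4 libraries. Gpr34 and Olfml3 were also lower there in 4 of 4 libraries. Sall1, Tmem119 and Siglech were lower in libraries 2 to 4. In library 1 they were higher, at 953, 1906 and 1850 CPM against 378, 1716 and 1709 CPM. The third cluster held 13 and 14 cells in libraries 1 and 2. Their medians were 1398 and 2011 UMIs per cell, against 5818 and 8437 in the largest cluster. In library 1 the third cluster had a median of 6.96% mitochondrial UMIs, against 2.49%. Its dissociation-response sum was 7737, 13328.8, 5681 and 5222 CPM in libraries 1 to 4. The largest cluster had 9916, 7647, 4782 and 5092 CPM. The clusters were made from these same cells, so these differences carry no test.

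Border macrophage-like cells held a lower level of part of the set. P2ry12 stood at 142, 146, 203 and 156 CPM in the cortical surface libraries and at 70.0 and 76.1 CPM in the bone-associated ones. Gpr34 stood at 163, 176, 168 and 265 CPM, against 123 and 147 CPM. Siglech stood at 46.8, 54.9, 74.5 and 67.6 CPM, against 65.7 and 80.0 CPM. Bone-associated libraries 1 and 2 held 16 and 98 of these cells. No test was run between preparations in this class, so the values are a description.

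The other genes had few or no UMIs in border macrophage-like cells. Tmem119 stood at 7.16, 7.05, 28.8 and 4.22 CPM in the cortical surface libraries and 4.38 and 16.3 CPM in the bone-associated ones. In library 3, 13 of its 17 UMIs lay in 1 cell, without which the level was 7.06 CPM. Olfml3 stood at 10.1, 29.7, 40.7 and 14.1 CPM, against 123 and 30.3 CPM. All 28 UMIs behind the 123 CPM came from a single cell of 16. Sall1 had 13 UMIs in all cortical surface border macrophage-like cells and 0 in bone-associated ones. Kcnk12, Hspb3 and Kcnd1 had 0 UMIs in all 6 libraries.

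As a share of the microglia-like level in the same libraries, border macrophage-like cells of the cortical surface held 8.23% for Gpr34, 4.72% for P2ry12 and 3.47% for Siglech. The shares were 1.35% for Olfml3, 0.637% for Sall1 and 0.537% for Tmem119. Summed over libraries, microglia-like cells were 12.9-fold higher for Gpr34, 21.8-fold for P2ry12, 32.9-fold for Siglech, 74.8-fold for Olfml3, 173-fold for Sall1 and 198-fold for Tmem119. For genes without a UMI in border macrophage-like cells, a floor of 3 counts over the group was used. Kcnk12 was at least 107-fold higher, Hspb3 at least 91.8-fold and Kcnd1 at least 63.8-fold. The ratios thus ran in the order of receptors, lectin, secreted protein and then Sall1 and Tmem119. They hold for the border macrophage-like class as named. That class leaves out an unnamed cluster of 312 cells led by Cxcl14 and MHC class II genes, described below, where Tmem119 stood at 40.0 to 61.9 CPM.

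**Figure D2:**
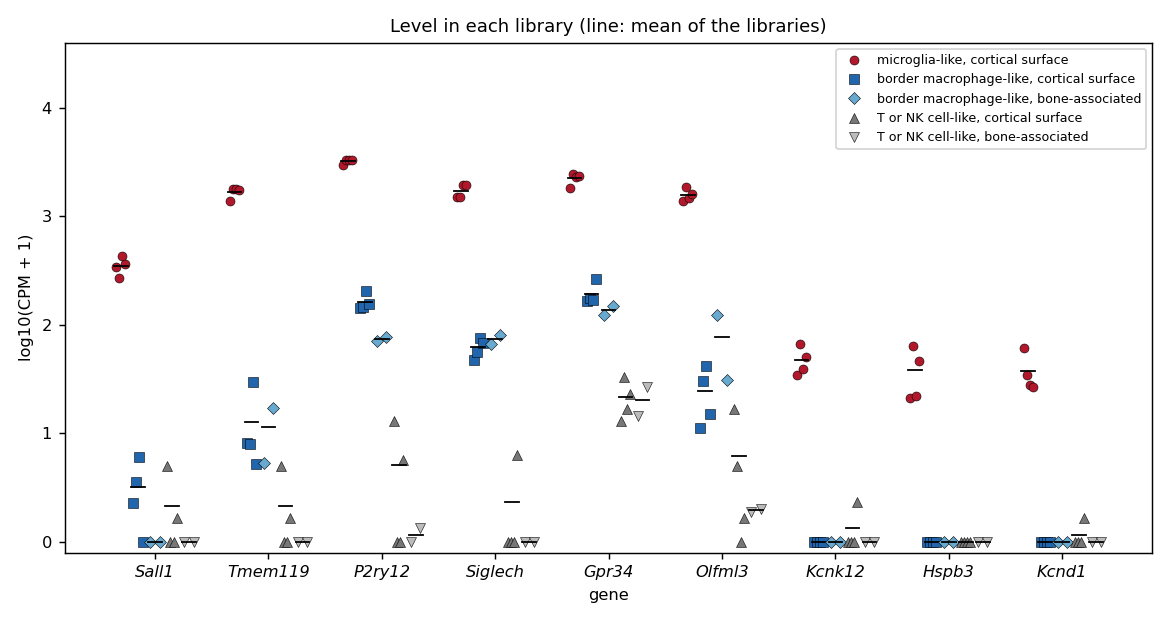
Level of each gene as log10(CPM + 1) in every library for microglia-like, border macrophage-like and T or NK cell-like cells; points are libraries and lines their means. Microglia-like points lie above all others for each gene, and the border macrophage-like points come closest for Gpr34. The high Olfml3 point of bone-associated library 1 rests on 1 cell with 28 UMIs.

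The 6 genes with higher counts marked single cells jointly. At least 5 of Sall1, Tmem119, P2ry12, Siglech, Gpr34 and Olfml3 had a UMI in 761 cells, of which 700 were microglia-like, 61 were not and 1 was bone-associated. All 6 had a UMI in 603 cells, of which 563 were microglia-like. Most of the 61 other cells were unnamed (32) or erythroid-like (19), and 6 were border macrophage-like. Among the unnamed were 2 clusters led by both erythroid and microglia markers.

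With each cell thinned to 1500 UMIs, 99.3% of 699 microglia-like cells had a UMI of at least 3 of the 6 genes and 73.0% of at least 5. Of 635 cortical surface border macrophage-like cells, 1.42% reached 3 and none reached 5. Before thinning, at least 5 genes were found in 95.8% of microglia-like and 0.705% of cortical surface border macrophage-like cells. Thinning left out 32 microglia-like and 74 border macrophage-like cells of the cortical surface.

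**Figure D3:**
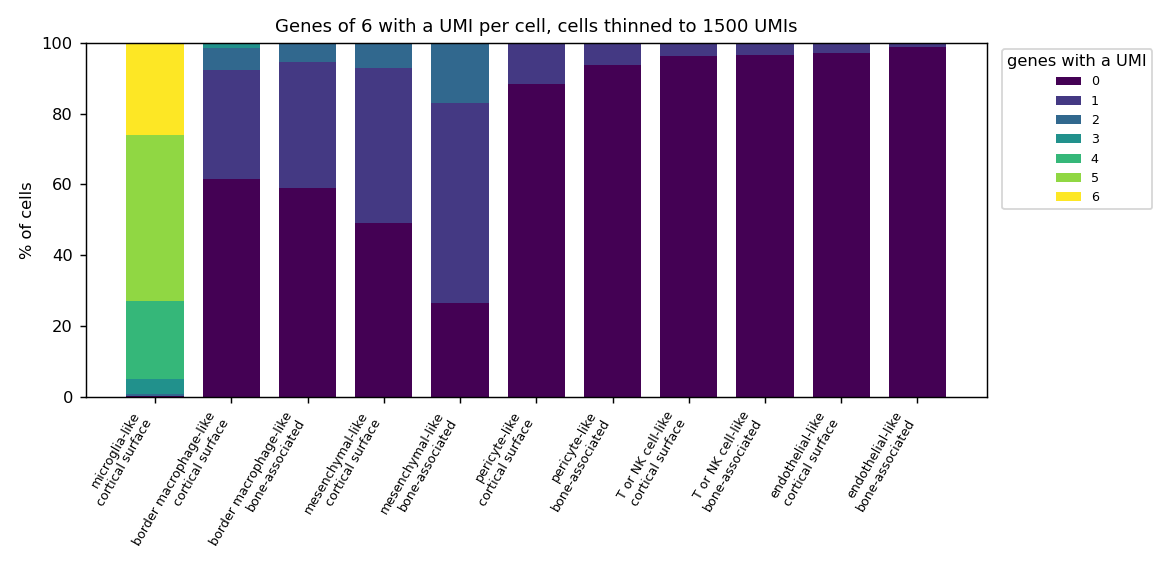
Share of cells (%) by how many of the 6 genes had a UMI, after thinning to 1500 UMIs per cell, for 6 classes in each preparation. Microglia-like cells mostly hold 4 to 6 genes, while mesenchymal-like cells hold 0 to 2 and the lymphoid and endothelial-like cells mostly none.

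An unnamed cortical surface cluster of 312 cells, singled out after its values were seen, carried another mixture. Its leading genes were Cxcl14 and the MHC class II genes H2-Eb1 and H2-Aa, which present antigen. Gpr34 stood there at 129, 117, 145 and 143 CPM in libraries 1 to 4, and Tmem119 at 40.0, 61.5, 61.9 and 59.1 CPM. P2ry12 stood at 55.3, 57.6, 50.7 and 61.9 CPM. Tmem119 was above and P2ry12 below the level of border macrophage-like cells in each of the 4 libraries. Sall1 had 2 UMIs in the cluster.

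In 2 places outside microglia-like cells, Siglech was concentrated in a few cells. Of its 189 UMIs in 117 bone-associated dendritic-like cells, 188 lay in 8 cells. In an unnamed cortical surface cluster of 154 cells led by Ccl17, Kcne3 and Flt3, 191 of 198 UMIs lay in 8 cells. In each case 7 of the 8 cells had a UMI of at least 3 of 8 plasmacytoid dendritic cell markers, such as Ccr9 and Spib. Among dendritic-like cells without Siglech, 2 of 108 did, and the 672 microglia-like cells with 3 or more Siglech UMIs had a median of 0 such markers. Over all 7949 cells outside the microglia-like class, 152 had 3 or more Siglech UMIs, and 15 of these had 3 such markers. The bound of 3 Siglech UMIs was set after the values were seen.

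**Figure D4:**
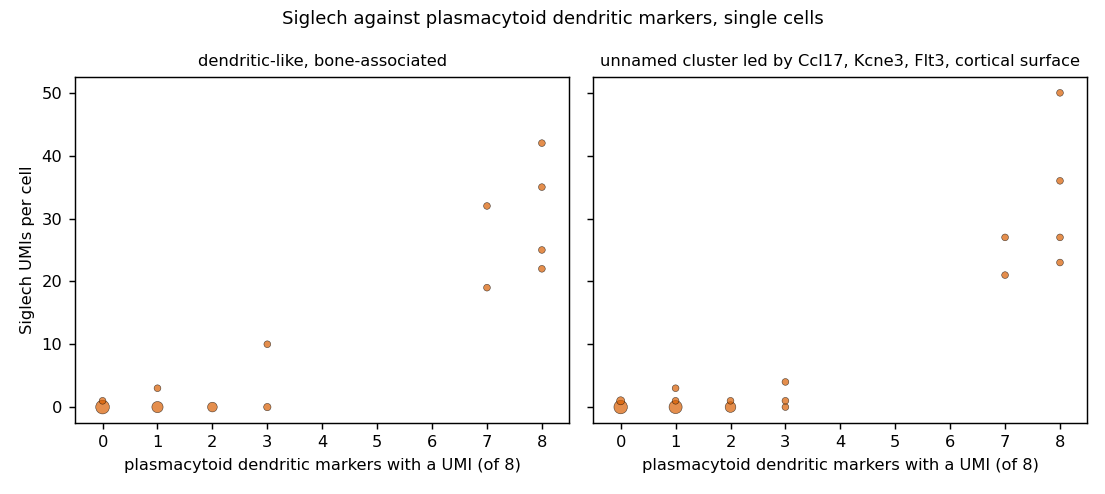
Siglech UMIs per cell (vertical) against the number of 8 plasmacytoid dendritic cell markers with a UMI (horizontal), in dendritic-like bone-associated cells and in a cortical surface cluster; larger points stand for more cells. The cells with the most Siglech hold 7 or 8 markers.

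Mesenchymal-like cells, the fibroblasts of the meninges, shared Tmem119 and Olfml3 with microglia-like cells, and the preparations differed. Tmem119 stood at 78.7, 107, 61.7 and 175 CPM in the cortical surface libraries and at 168 and 169 CPM in the bone-associated ones. Olfml3 stood at 332, 356, 258 and 402 CPM, against 841 and 906 CPM. The preparations overlapped for Tmem119, through cortical surface library 4 alone with its 20 mesenchymal-like cells, and not for Olfml3. Sall1 stood at 46.3, 24.1, 28.0 and 51.5 CPM, against 0 and 0.265 CPM, which is 72 UMIs in 53 of 264 cells against 1 UMI in 283 cells.

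The comparison between preparations asked which genes differ between fibroblasts of the cortical surface and those of the bone-associated tissue (dura and skull). The preparations were also dissected in different ways. A gene was called at an adjusted p under 0.05 with a log2 fold change of 1.3 or more in size. Of 9562 genes tested, 5.93% were called higher and 9.05% lower at the cortical surface. Only 3 of the 9 genes passed the filter of detection in over 10% of cells. Sall1 was higher at the cortical surface (log2 fold change 6.64, SE 0.74, adjusted p = 2.385e-08, edgeR quasi-likelihood test). It passed that filter through the cortical surface cells alone, so only a call in this direction could be made. With a filter on the total instead (at least 10 UMIs over both groups), the log2 fold change was 6.59 (adjusted p = 1.853e-09, edgeR). As counts, its ratio was 138 with a 95% counting interval of 24.0 to 5524. Olfml3 was lower (log2 fold change -1.34, SE 0.27, adjusted p = 0.0003938, edgeR). Tmem119 did not pass (log2 fold change -0.73, SE 0.31, adjusted p = 0.1072, edgeR).

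Olfml3 lay close to the fold threshold, and its fold fell under it, with the direction kept, in 5 of 18 alternative settings. The microglia marker sum was 113 to 247 CPM in cortical surface and 163 to 178 CPM in bone-associated mesenchymal-like cells. P2ry12 had 15 UMIs in the 264 cortical surface cells that held 72 of Sall1. Microglia-like cells held 15426 of P2ry12 and 1654 of Sall1. The source of the Sall1 UMIs in mesenchymal-like cells was not tested. Within the bone-associated cells, Olfml3 was higher in a cluster led by Col6a5, Kcns1 and Galr2 (965 and 1042 CPM) than in a cluster led by Inmt, Apod and Epyc (538 and 561 CPM). Tmem119 showed no such order, at 160.0 and 175 CPM against 188 and 153 CPM. Outside the mesenchymal-like class, an unnamed bone-associated cluster of 48 cells was led by vascular smooth muscle and mesenchymal markers. It held Tmem119 at 149.5 and 201 CPM in libraries 1 and 2.

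**Figure D5:**
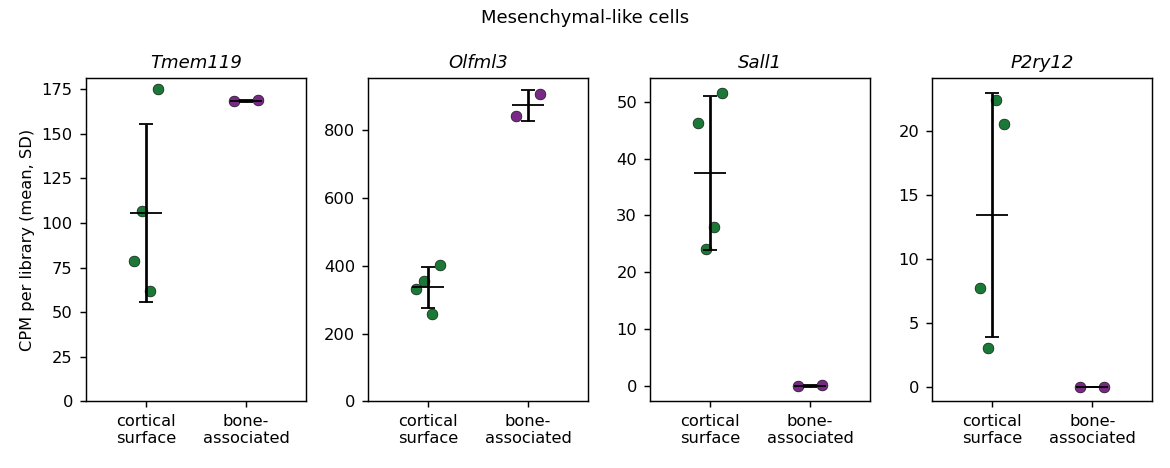
CPM of Tmem119, Olfml3, Sall1 and P2ry12 in mesenchymal-like cells, with a point for each of the 4 cortical surface and 2 bone-associated libraries and the mean with SD. Olfml3 is higher in both bone-associated libraries, and Sall1 is at 24.1 to 51.5 CPM at the cortical surface and near 0 in the bone-associated libraries.

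Against T or NK cell-like cells of the same libraries, 40.6% of genes were called in mesenchymal-like cells. Olfml3 was higher there (log2 fold change 8.13, SE 0.58, adjusted p = 4.285e-08, edgeR with the library as a block). It passed the detection filter through mesenchymal-like cells alone, and with the filter on the total the difference was 8.15 (adjusted p = 2.119e-11, edgeR). Tmem119 was 8.24 higher on the log2 scale, a description because its presence in fibroblasts chose it. T or NK cell-like cells held 6 Olfml3 and 2 Tmem119 UMIs at the cortical surface, and 4 and 0 in the bone-associated libraries.

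Pericyte-like cells, which wrap capillaries, held Olfml3 at 72.7, 66.6, 62.5 and 52.1 CPM at the cortical surface and 58.5 and 37.5 CPM in the bone-associated libraries. The groups overlapped, and the difference did not pass (log2 fold change 0.36, SE 0.29, adjusted p = 0.553, edgeR; 6.67% of genes called). With cells of at least 1000 genes only, the fold turned to -0.49. Against T or NK cell-like cells, Olfml3 was higher (log2 fold change 4.56, SE 0.47, adjusted p = 1.498e-06, edgeR; 38.6% called). It passed the detection filter through pericyte-like cells alone, so it could be called only higher. With the filter on the total, the log2 fold change was 4.57 (adjusted p = 1.055e-08, edgeR). Among cortical surface pericyte-like cells, a cluster led by Colec11, Cyp4b1 and Ccl19 had 77.3 to 85.3 CPM and the other 26.4 to 50.3 CPM. None of the 9 genes was detected in enough VSMC-like (vascular smooth muscle) or endothelial-like cells to be tested between preparations, where 6.15% and 6.72% of genes were called.

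Gpr34 was the gene of the set found in lymphoid cells. In T or NK cell-like cells it stood at 11.96, 32.4, 15.6 and 21.9 CPM in cortical surface libraries 1 to 4 and at 13.3 and 25.6 CPM in the bone-associated ones. The preparations overlapped. Gpr34 was lower in mesenchymal-like (log2 fold change -4.33, SE 0.51, adjusted p = 5.989e-06) and pericyte-like cells (-3.86, SE 0.47, adjusted p = 8.361e-06) than in T or NK cell-like cells by edgeR. It was lower also in VSMC-like (-4.86, SE 0.59, adjusted p = 1.699e-06, with 41.0% of genes called) and endothelial-like cells (-3.90, SE 0.49, adjusted p = 2.799e-05, with 34.2% called). Gpr34 passed the detection filter through T or NK cell-like cells alone, so it could be called only lower. With the filter on the total, the log2 fold changes were -4.24, -3.81, -4.84 and -3.87 in the same order, with adjusted p-values of 9.694e-07, 1.049e-06, 4.045e-09 and 5.363e-06 (edgeR). A bone-associated cluster led by Cd163l1, Trdc and Tcrg-V6, genes of gamma-delta T cells, held Gpr34 at 57.4 and 63.6 CPM. In bone-associated library 2 this cluster, with 141 of the 447 T or NK cell-like cells, held 55 of their 76 Gpr34 UMIs. An unnamed cluster led by Il5, Arg1 and Ccdc184 held 30.6 and 53.1 CPM.

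Erythroid-like cells held all 9 genes, at 4.71% (Tmem119) to 9.15% (Hspb3) of the microglia-like level in the same 2 cortical surface libraries. Kcnk12, Hspb3 and Kcnd1 rest on 3 to 6 UMIs there. P2ry12 stood at 159 to 188 CPM and Siglech at 103 to 140 CPM. Cortical surface border macrophage-like cells had 142 to 203 CPM and 46.8 to 74.5 CPM. The erythroid-like levels came from a minority of the 124 cells, with P2ry12 in 32, Tmem119 in 22 and Sall1 in 18. P2ry12 was found in 406 of the 709 border macrophage-like cells. An erythroid-like cluster of 21 cells was also led by 3 of the 8 microglia markers. The source of these UMIs was not tested. A few other places held single genes. Sall1 stood at 70.2 CPM in the 26 neuron-like cells of cortical surface library 2, where 10 cells had a UMI. Kcnk12 stood at 14.9 and 5.06 CPM in bone-associated dendritic-like cells (24 UMIs). In cortical surface monocyte or other macrophage-like cells, 94.6% of Olfml3 and 82.4% of Tmem119 UMIs came from 1 cell for each gene, in library 1. With 9 cells of the class, that library is not part of the class level, which rests on 1 Olfml3 and 5 Tmem119 UMIs in 161 cells.

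The pattern of each gene over the 27 groups was compared with that of 14729 genes, as Pearson's r of log2(CPM + 1), a description over groups that share libraries. Tmem119 and Olfml3 were most like each other (r = 0.90). P2ry12 was most like Crybb1 (0.91), Fcrls (0.90) and C1qc (0.90), and Gpr34 like Crybb1 (0.85), P2ry12 (0.85) and Gna15 (0.84). Crybb1 was among the markers that named the microglia-like class, so likeness to it was in part built in. Siglech was most like Abcc3 (0.86), P2ry12 (0.85) and Arhgap22 (0.85). Sall1 was most like Csmd3 (0.85), Sall3 (0.83) and Mlxipl (0.83). For the sparse genes, the nearest were Hspb3 for Kcnk12 (0.78), Tmem52 for Hspb3 (0.94) and Gm32849 for Kcnd1 (0.88).

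Related genes that took no part in naming the classes were compared between microglia-like and border macrophage-like cells within the cortical surface libraries, where 7.96% of 7496 genes were called higher and 8.80% lower by edgeR with the library as a block. Of 16 genes listed as microglia transcription factors or TGF-beta axis, 15 were tested, 7 were higher and 2 lower (median log2 fold change 1.22). They were listed with earlier results of these data known, so their direction is not independent evidence. The median over all genes tested was 0.01. Sall3, a relative of Sall1, stood at 137 CPM against 0.314 CPM (adjusted p = 1.139e-13, edgeR), a ratio of 436 with a 95% counting interval of 120.2 to 3608.6. Sall3 passed the detection filter through microglia-like cells alone (47.9% of cells against 0.282%), so it could be called only higher. Tgfbr1, which encodes a TGF-beta receptor, was higher by 4.16 (SE 0.12) on the log2 scale. Maf (log2 fold change -1.49, SE 0.10) and Nrros (-1.33, SE 0.12), whose product holds latent TGF-beta, were lower. The fold of Nrros fell under the threshold in 4 of 16 alternative settings.

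Of 28 other microglia-associated genes, 27 were tested, 15 were higher and none lower (median 1.47). The genes were listed for their link with microglia, with earlier results of these data known, so their direction is not independent evidence. Ecscr was 8.61 and Nav3 6.89 higher on the log2 scale. Both passed the detection filter through microglia-like cells alone, so they could be called only higher. Cst3, which encodes the protease inhibitor cystatin C, had the highest level of the list, at 57036 CPM against 6462.5 CPM.

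Relatives by function moved in both directions. Of 14 purinergic genes, 6 were tested, and Adora3 (log2 fold change 6.18) and P2ry13 (2.20) were higher while the ATP-gated channel genes P2rx7 (-1.84) and P2rx4 (-1.45) were lower. Of 6 lysophosphatidylserine genes, 3 were tested and P2ry10b (2.98) was higher. Of 9 Siglec and adaptor genes, 6 were tested, with Mag higher (1.67) and Siglec1 lower, at 2 UMIs against 245. Adora3, P2ry10b and Mag passed the detection filter through microglia-like cells alone, so they could be called only higher. Siglec1 passed it through border macrophage-like cells alone, so it could be called only lower. The adaptor gene Tyrobp did not pass (log2 fold change -0.04), although its summed levels were 2931 CPM against 2372 CPM.

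Of 18 potassium channel relatives, 4 were tested, and Kcnj2 (2.11), Kcnk6 (1.85) and Kcnk13 (1.46) were higher. Of 7 small heat shock protein genes, 2 were tested and neither passed. Of 7 Sall and olfactomedin-like relatives, 1 was tested, and Olfml2b was higher (4.77). Of 15 dissociation-response genes, 14 were tested, 2 were higher and 5 lower (median -0.79), among them Il1a (3.87) and Fos (-1.83). Kcnj2, Olfml2b and Il1a passed the detection filter through microglia-like cells alone, so they could be called only higher.

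Some of these folds lay near the threshold and fell under it, with the direction kept. With cells thinned to 1500 UMIs, P2rx4 stood at -1.25 and Kcnk13 at 1.09. Without cortical surface libraries 3 and 4, P2rx4 stood at -1.19 and Fos at -1.18, and without library 2 Mag stood at 1.22.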

How the data were processed

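The authors deposited raw UMI counts for each gene in each barcode, made with Cell Ranger on mm10 (the submitters' processing notes name version 3, the file headers 6.1.2). No normalized values were used. The 9 genes and all gene lists were chosen with earlier results of these data known.

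Barcodes needed 500 or more genes and no more than 10% mitochondrial UMIs, and doublets were removed by simulation at 0.8% per 1000 cells. Free RNA was not corrected. Each preparation was clustered from 2000 variable genes, 30 components and 15 neighbours (Leiden, resolution 1.5). Harmony, which the authors used for the merged cortical surface libraries and not for the merged bone-associated ones, was not applied. The 9 genes and the related lists were kept out of clustering and naming. A cluster took the class with the largest share of its markers leading, at least 3. It stayed unnamed where a second class also had 3 or more markers leading that made up 50% of its list, or where another class had more markers among the top 10 genes. Classes were thus rebuilt and are not those of the authors.

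UMIs were summed per library and class (at least 10 cells). The test was edgeR's quasi-likelihood test with TMM factors, on genes found in more than 10% of cells of 1 group or the other, with Benjamini-Hochberg adjustment over all of them. Called means an adjusted p under 0.05 with a log2 fold change of 1.3 or more in size. A group without a UMI took a floor of 3 counts, and intervals (exact, 95%) and floors cover counting error only. The replicate numbers 1 and 2 occur in both preparations, but the labels do not say that they mark shared animals, so they were not used as pairs. On simulated counts for the mesenchymal-like comparison between preparations (9562 genes), 189 of 200 changed genes were recovered with 6 false calls.

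Named genes were the 9 genes, the 3 genes most correlated with each over the 27 groups (at least 50 UMIs), and from each list the 3 called genes with the largest change in each direction and those with the highest level in microglia-like cells or anywhere. Some genes that this rule names are not reported here. Alternatives were DESeq2, RLE normalization, no share filter, no hemoglobin genes, other cell filters, no doublet removal, a lower resolution, the genes included in clustering, thinning to 1500 UMIs, the replicate block and each library left out. Leaving out cortical surface libraries 3 and 4 together was added after seeing the data. Tests ran in R 4.3.3 with edgeR 4.0.16, DESeq2 1.42.0 and limma 3.58.1. Clustering ran in Python 3.11.15 with leidenalg 0.10.2, igraph 0.11.9, scikit-learn 1.9.0, pandas 2.3.3 and scipy 1.17.1, and plots with matplotlib 3.10.9.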

Additional observations from a re-analysis of the deposited data

Results flagged for a closer look

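Among 20 groups of 4 cortical surface libraries, 4 had 1 library far from the other 3, by a gap above Dixon's 95% critical value for its share of the whole range. Chance flags about 1 in 20 groups. In microglia-like cells, library 1 was the lowest for Tmem119 (a gap of 0.879 of the range) and for P2ry12 (0.878). That library held 52 microglia-like cells, the fewest, with a median of 3843.5 UMIs per cell against 5956 to 8081 in the others. In border macrophage-like cells, library 3 was the highest for Tmem119 (0.88) and library 4 for Gpr34 (0.873). The Tmem119 gap rests on 1 cell with 13 UMIs: without it library 3 stood at 7.06 CPM, inside the range of 4.22 to 7.16 CPM of the others. The part of cell number and depth in the gaps of library 1 was not tested.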

How the results depend on the processing

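Sall1 in mesenchymal-like cells between preparations kept its direction and call in 17 of 17 alternatives (log2 fold change 6.33 to 7.28), and thinned cells left it untested. Olfml3 kept its direction in 18 of 18 (-1.46 to -1.20) and its call in 13. Its fold fell under the threshold with up to 20% mitochondrial UMIs (-1.20), resolution 1.0 (-1.29), thinning (-1.25), and without bone-associated library 2 (-1.24) or cortical surface library 3 (-1.27). In pericyte-like cells Olfml3 turned to -0.49 with at least 1000 genes per cell. Tyrobp turned to 0.005 under that filter, and Hspb1 lay between -0.32 (without cortical surface library 1) and 0.70 with a library left out. The cause was not tested.

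Thinning to 1500 UMIs, which leaves fewer genes over the detection filter, lowered the counts of called genes between preparations to 594 (mesenchymal-like), 193 (pericyte-like), 178 (VSMC-like) and 253 (endothelial-like), from 1432, 484, 515 and 520. Against T or NK cell-like cells it gave 1360, 1320, 1387 and 1214, from 3813, 2867, 3518 and 2690, and for microglia-like against border macrophage-like cells 640 from 1257. Without the share filter the counts were 793 (endothelial-like between preparations), 5930, 5037 and 4748 (mesenchymal-like, pericyte-like and endothelial-like against T or NK cell-like), and 2334 (microglia-like). At least 1000 genes per cell gave 842 for pericyte-like cells between preparations.

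With each library left out in turn, the counts between preparations were 1213 to 1437 (mesenchymal-like), 313 to 519 (pericyte-like, lowest without bone-associated library 2), 448 to 564 (VSMC-like) and 400.0 to 557 (endothelial-like). With the replicate number as a block, 1474, 485, 581 and 473 genes were called, and the Tmem119 fold stayed under the threshold. Deviations of same-numbered libraries correlated at 0.0396 and 0.175 in mesenchymal-like, 0.149 and 0.212 in pericyte-like and 0.197 and 0.121 in endothelial-like cells. In VSMC-like cells, with 2 libraries per preparation, both correlations are the same by construction, at 0.354. Depth limits Kcnk12, Hspb3 and Kcnd1 most, whose median is 0 UMIs per microglia-like cell.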
